A study of Mus musculus with 6 samples.

Results

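The interleukin-12 and interleukin-18 receptor axis was described through 8 genes, taken by symbol from the deposited table of 24559 genes. Il12rb1 and Il12rb2 encode the receptor chains for interleukin-12, Tyk2 and Jak2 the kinases bound to those chains, and Stat4 the transcription factor that they activate. Il18r1 and Il18rap encode the chains of the interleukin-18 receptor, and Myd88 the adaptor that the receptor recruits. Each of the 8 symbols had 1 row, and all 8 passed the filter on low values, which left 14922 genes for testing.

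The libraries came from CD8+ T cells of C57 BL/6 wild-type mouse spleen, kept as a primary culture. L-4F, an apolipoprotein A1 mimetic peptide, was given to the cells of 3 libraries and ABCT buffer to those of the other 3, all of the same genotype and tissue. Reads in genes summed to 25073292 to 31332003 per library. The labels give no dose, duration, stimulus of the culture or number of mice. They also leave unsaid whether each library had its own mouse or culture, and the p-values therefore cover the spread among these libraries alone, which may be technical. In bulk RNA, fewer cells carrying a transcript and less transcript per cell cannot be told apart.

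Interleukin-12, made by dendritic cells and macrophages, joins IL-12R beta 1 and IL-12R beta 2 into a receptor. IL-12R beta 1 binds TYK2 and is shared with the interleukin-23 receptor, whereas IL-12R beta 2 binds JAK2, carries the docking site for STAT4 and is induced when T cells are activated. Interleukin-18 signals through IL-18R1 and its accessory protein, which share the cytoplasmic TIR domain of the interleukin-1 receptor family and recruit MyD88, IRAK kinases and TRAF6 towards NF-kB and p38. In CD8+ T cells the 2 cytokines act together, and their best known product is interferon-gamma.

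With L-4F, Il12rb2 was the gene of the axis that changed most, and it fell to 0.665 of its level in buffer. Jak2, Tyk2 and Il18r1 fell by smaller amounts, and Stat4 rose slightly. Il12rb1, Il18rap and Myd88 did not pass the test. Of the 8 genes 5 were called (limma, adjusted p under 0.05), beside 38.2% of all genes tested. There were 4 called lower, beside 19.7% of all genes, and 1 called higher, beside 18.4%. The median log2 fold change of the 8 genes was -0.11, and that of all genes tested was -3.66e-05. The authors' deposited table listed 4 of the 8 genes at an FDR under 0.05, the same genes without Stat4, whose deposited FDR was 0.0550.

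**Figure D1:**
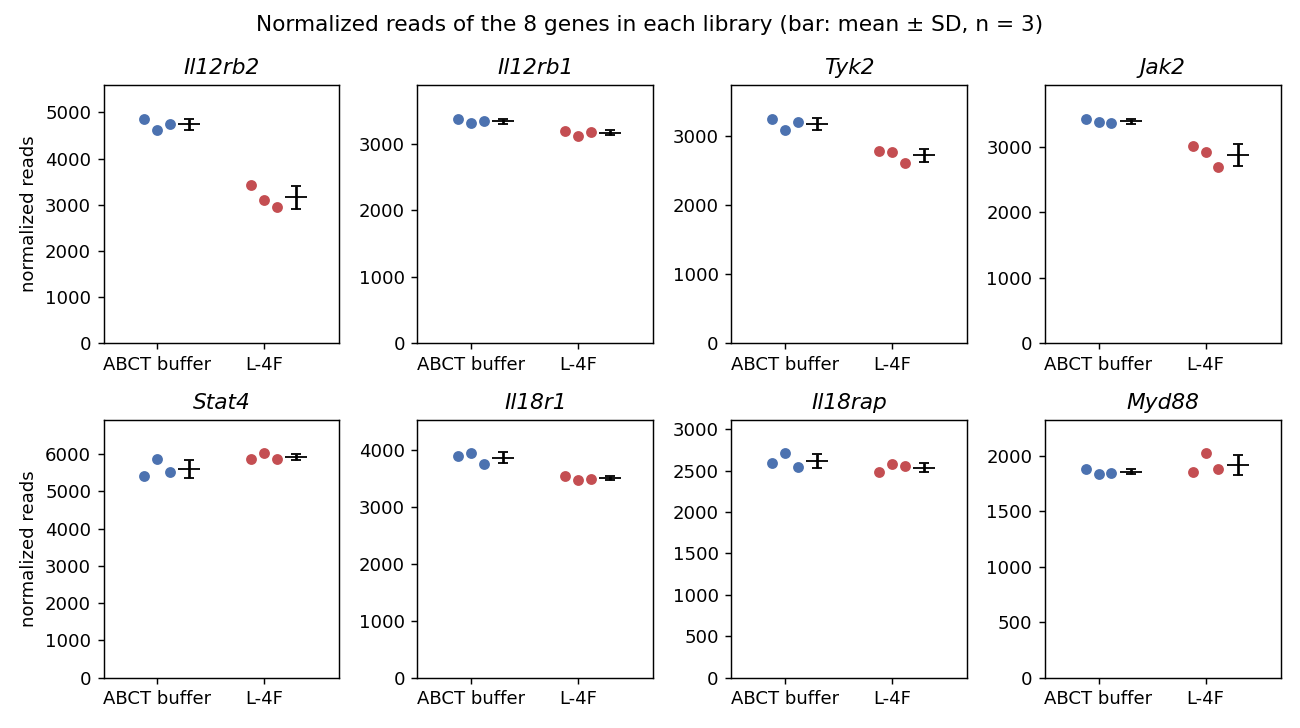
Normalized reads (vertical axis, from 0) of each of the 8 genes in the 3 ABCT buffer and 3 L-4F libraries. Points are libraries, and bars give the mean and SD. The L-4F libraries of Il12rb2 sit between 2946 and 3435, below the lowest buffer library at 4614, whereas those of Il18rap, Stat4 and Myd88 overlap with buffer.

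The promoters of the 3 genes with the largest falls, Il12rb2, Jak2 and Tyk2, are shown to let their start regions be compared. Each sequence is the 250 bases before the RefSeq transcription start on the coding strand, on GRCm38.p6, and none overlapped an annotated exon. Capitals mark a match to the STAT element TTCNNNGAA, the only 1 of 5 searched motifs that occurred in them.
Il12rb2, chr6:67376189-67376438, minus strand: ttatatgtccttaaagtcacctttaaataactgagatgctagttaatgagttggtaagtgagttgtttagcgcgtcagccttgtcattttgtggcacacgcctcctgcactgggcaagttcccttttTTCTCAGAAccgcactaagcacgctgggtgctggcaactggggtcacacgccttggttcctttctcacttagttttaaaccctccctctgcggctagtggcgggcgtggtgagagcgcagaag
Jak2, chr19:29251553-29251802, plus strand: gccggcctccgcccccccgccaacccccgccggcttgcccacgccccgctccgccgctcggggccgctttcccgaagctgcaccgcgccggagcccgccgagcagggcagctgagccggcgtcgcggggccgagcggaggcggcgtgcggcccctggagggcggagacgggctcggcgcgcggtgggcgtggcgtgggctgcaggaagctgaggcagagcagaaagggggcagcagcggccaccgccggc
Tyk2, chr9:21131276-21131525, minus strand: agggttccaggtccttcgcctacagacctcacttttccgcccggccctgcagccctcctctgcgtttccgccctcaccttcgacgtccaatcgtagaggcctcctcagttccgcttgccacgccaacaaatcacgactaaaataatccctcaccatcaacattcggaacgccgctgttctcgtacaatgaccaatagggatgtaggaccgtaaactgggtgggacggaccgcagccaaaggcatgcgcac
The match in Il12rb2 starts 123 bases before the transcription start, and 7.02% of the 32851 promoter windows of this length held such a match on either strand. It was not particular to Il12rb2 within the axis. The window of Myd88, which was not called, held 1 match 46 bases before its start. A window at another start of Il18r1 held 2, at 219 and 152 bases. Unlike the 3 windows shown, these windows overlapped an annotated exon, by at most 23 bases for Myd88 and 55 for Il18r1. Both starts lie inside the annotated gene. The other motifs searched on both strands were TATAAA (12.4% of windows), the ETS core GGAAGT (19.7%), the AP-1 site TGANTCA (6.75%) and the T-box element AGGTGTGA (1.12%). The base composition of the 3 windows differed widely. Jak2 had 80.8% G and C with 37 CpG pairs, Tyk2 57.2% with 19, and Il12rb2 50% with 10, beside medians of 52.4% and 6 over all windows. A match is a match of letters only, and no binding was measured here.

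Among the interleukin-12 receptor chains only Il12rb2 passed the test. Il12rb2 had 4868, 4614 and 4746 normalized reads in the 3 buffer libraries and 3435, 3096 and 2946 in the 3 L-4F libraries. Every L-4F library lay below every buffer library, and the L-4F libraries differed among themselves more than the buffer libraries did (SD 250.4 against 127). Non-overlap as such was common, at 47.6% of all genes tested. The log2 fold change was -0.59 (SE 0.045, 95% interval -0.69 to -0.49, limma adjusted p = 4.06e-08), a fall of Il12rb2 from 4742 to 3159 in the means. Of all 14922 genes tested, 696 (4.66%) had a lower log2 fold change than Il12rb2.

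Il12rb1, the chain shared with the interleukin-23 receptor, had 3381, 3308 and 3341 normalized reads in buffer and 3200, 3122 and 3186 with L-4F. The groups did not overlap, yet the difference was small (log2 fold change -0.077, SE 0.032, 95% interval -0.14 to -0.011) and missed the threshold (limma adjusted p = 0.0630). It passed in 6 of 19 other settings, for instance with a smooth trend in transcript length removed from each library (-0.11, adjusted p = 0.0130).

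The balance of the 2 chains was compared within each library, where it does not depend on the scaling of that library. The ratio of Il12rb2 to Il12rb1 normalized reads was 1.44, 1.39 and 1.42 in buffer and 1.07, 0.992 and 0.925 with L-4F. All 3 L-4F ratios lay below all 3 buffer ratios. On the log2 scale the mean ratio went from 0.50 ± 0.023 to -0.0075 ± 0.107 (SD, n = 3 per group), a difference of -0.51 (two-sided exact permutation p = 0.1, below which 3 against 3 libraries cannot go). The difference was -0.50 with the transcript length trend removed and -0.50 with a trend in GC content removed, and it lay between -0.57 and -0.46 when each library was left out in turn.

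**Figure D2:**
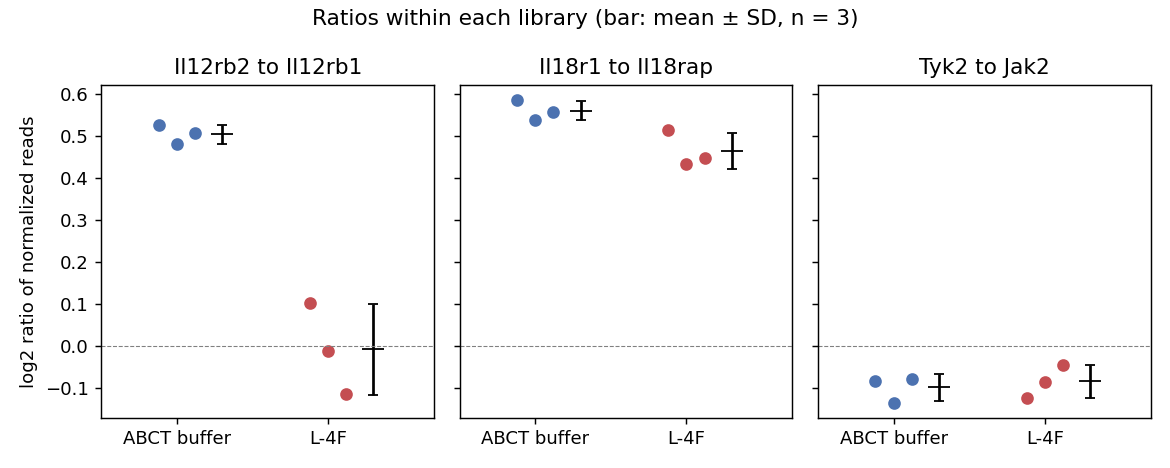
Log2 ratio of normalized reads (vertical axis) of the paired receptor chains and of the kinases within each library. Points are libraries, bars the mean and SD of 3, and the dashed line marks equal reads. The Il12rb2 to Il12rb1 ratio moves from 0.50 to -0.0075 between the group means, the Il18r1 to Il18rap ratio from 0.56 to 0.46, and the Tyk2 to Jak2 ratio from -0.098 to -0.084.

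Both receptor-bound kinases fell. Jak2, the kinase of IL-12R beta 2 and of several other cytokine receptors, had 3439, 3380 and 3374 normalized reads in buffer and 3020, 2933 and 2695 with L-4F. The buffer libraries lay close together and above all L-4F libraries, of which the third was lowest. The log2 fold change was -0.24 (SE 0.039, 95% interval -0.32 to -0.16, limma adjusted p = 3.7e-05).

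Tyk2, the kinase of IL-12R beta 1 and of the type I interferon receptor, had 3249, 3080 and 3195 normalized reads in buffer and 2773, 2767 and 2612 with L-4F. The groups again did not overlap, with a log2 fold change of -0.22 (SE 0.036, 95% interval -0.30 to -0.15, limma adjusted p = 3.56e-05). The log2 ratio of Tyk2 to Jak2 within a library was -0.098 ± 0.0311 in buffer and -0.084 ± 0.0392 with L-4F, a difference of 0.014 (exact two-sided permutation p = 0.7). This difference was -0.017 with the GC trend removed and 0.080 with the summed exon length trend removed, where the ratios of the groups did not overlap (exact two-sided permutation p = 0.1), so whether Jak2 fell more than Tyk2 depends on the setting. Both kinases were called in all 19 other settings, but with the transcript length trend removed Jak2 was at -0.13 (adjusted p = 0.0183) and Tyk2 at -0.12 (adjusted p = 0.0124). With the summed exon length trend removed Jak2 was at -0.21 and Tyk2 at -0.13.

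Stat4, the transcription factor downstream of the interleukin-12 receptor, had 5403, 5882 and 5517 normalized reads in buffer and 5877, 6022 and 5866 with L-4F. The second buffer library lay within the L-4F range, so the groups overlapped. The log2 fold change was 0.081 (SE 0.031, 95% interval 0.016 to 0.15, limma adjusted p = 0.0445), the only call close to the threshold. It was lost in 11 of 19 other settings, among them removal of any library except buffer library 2: the adjusted p was 0.241 without buffer library 1, 0.144 without buffer library 3, and 0.0625, 0.109 and 0.0558 without L-4F libraries 1, 2 and 3. Stat4 was at 0.056 with the transcript length trend removed (adjusted p = 0.187) and at 0.041 with median centring (adjusted p = 0.315), and at 0.13 under quantile normalization (adjusted p = 0.00182).

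Of the interleukin-18 receptor chains, the ligand-binding one fell. Il18r1 had 3883, 3934 and 3748 normalized reads in buffer and 3538, 3474 and 3481 with L-4F. The groups did not overlap, and the SD was 95.9 in buffer and 35.2 with L-4F. The log2 fold change was -0.14 (SE 0.032, 95% interval -0.21 to -0.07, limma adjusted p = 0.00124), and the mean fell by 9.24%. Il18r1 passed in all 19 other settings, at -0.085 with the transcript length trend removed (adjusted p = 0.0496) and at -0.085 under quantile normalization (adjusted p = 0.0346).

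Il18rap, the accessory chain, had 2587, 2707 and 2547 normalized reads in buffer and 2478, 2573 and 2553 with L-4F. The groups overlapped (log2 fold change -0.044, SE 0.037, 95% interval -0.12 to 0.033, limma adjusted p = 0.381), and no other setting called it. Its sign turned with the transcript length trend removed (0.060) or a trend in summed exon length removed (0.050). The log2 ratio of Il18r1 to Il18rap was 0.59, 0.54 and 0.56 in buffer and 0.51, 0.43 and 0.45 with L-4F. The 3 L-4F ratios lay below the 3 buffer ratios, with a difference of -0.096 in the mean (two-sided exact permutation p = 0.1, again the smallest possible). It was -0.14 with the transcript length trend and -0.17 with the summed exon length trend removed, and -0.092 with the GC trend removed. In the deposited scale this difference had a smaller size than that of the interleukin-12 chains, and the 2 differences were not tested against each other.

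Myd88, the adaptor shared by the interleukin-1, interleukin-18 and most Toll-like receptors, had 1884, 1838 and 1849 normalized reads in buffer and 1855, 2023 and 1883 with L-4F. The second L-4F library was the highest, and the groups overlapped. The log2 fold change was 0.048 (SE 0.043, 95% interval -0.041 to 0.14, limma adjusted p = 0.415), and the sign turned with the transcript length trend (-0.018) or the summed exon length trend (-0.051) removed.

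**Figure D3:**
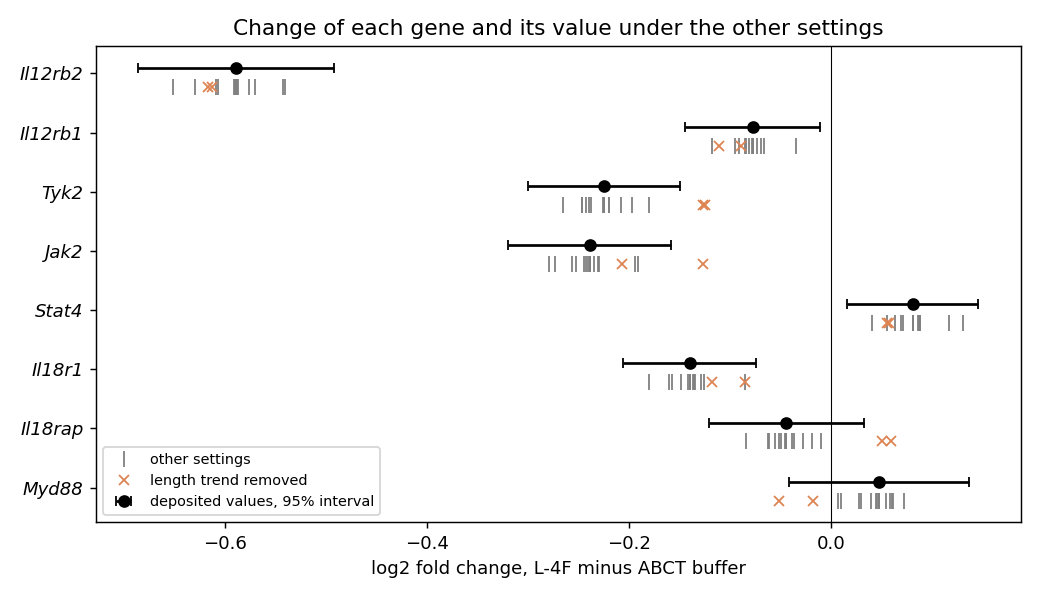
Log2 fold change, L-4F minus ABCT buffer (horizontal axis), of each gene. Black points with bars are the deposited values with 95% intervals, grey ticks the other settings and orange crosses the settings with a length trend removed. Il12rb2 lies between -0.65 and -0.54 in all settings, and Il18rap and Myd88 have crosses on the other side of 0 from their points.

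Log2 fold changes were lower for longer transcripts in these libraries, so the lengths are given beside them. Across 14910 genes, which are not independent replicates, the rank correlation of log2 fold change with the longest annotated transcript was -0.45. Il12rb2 (2998 nt), Stat4 (2982 nt), Il12rb1 (2873 nt) and Myd88 (2458 nt) were near the median of 2964 nt of the genes tested. Jak2 (5030 nt), Il18rap (4889 nt), Tyk2 (4828 nt) and Il18r1 (4158 nt) were longer. With the length trend removed 5 of the 8 genes were called lower, Il12rb2, Il12rb1, Il18r1, Tyk2 and Jak2, and 0 higher, beside 12.9% and 13.5% of all genes (26.4% in either direction). Il12rb2 was then at -0.61 (adjusted p = 8.51e-08), close to its value without this step. Jak2 (-0.13), Tyk2 (-0.12) and Il18r1 (-0.085) were closer to 0 than before it, and what produces the length relation was not tested.

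**Figure D4:**
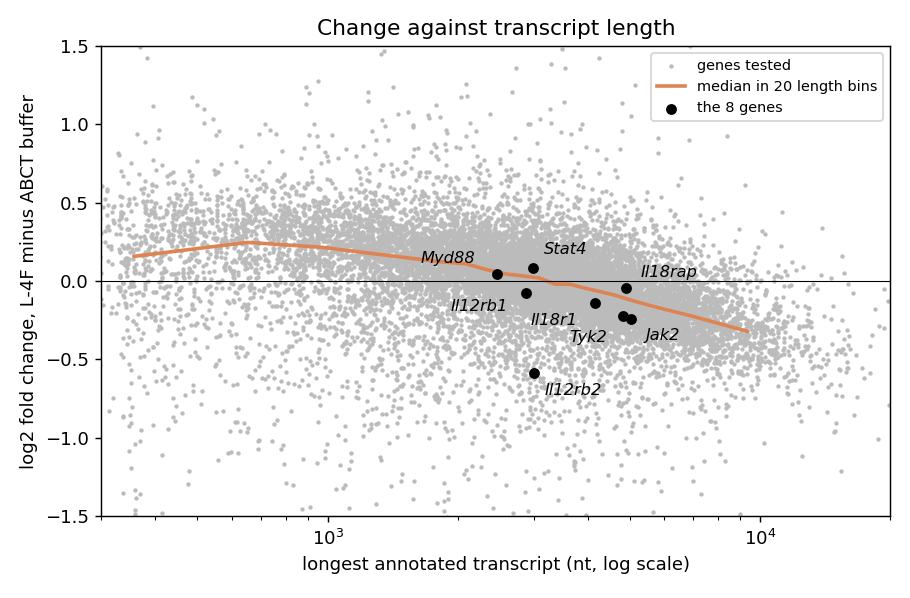
Log2 fold change, L-4F minus ABCT buffer (vertical axis), against the longest annotated transcript in nt (log scale). Grey points are genes tested, the line is the median in 20 length bins and black points are the 8 genes; 348 genes lie outside the axes. Il12rb2, at 2998 nt and -0.59, lies far below the line, and Tyk2 and Jak2 lie nearer to it.

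Levels can be compared between genes only per length. In buffer the order in normalized reads per kb of the longest transcript was Stat4 (1878 ± 83.9), Il12rb2 (1582 ± 42.4), Il12rb1 (1164 ± 12.7), Il18r1 (927 ± 23.1), Myd88 (755 ± 9.86), Jak2 (675 ± 7.21), Tyk2 (658 ± 17.9) and Il18rap (535 ± 17.1; SD, n = 3). Only the neighbours Jak2 and Tyk2 overlapped in their libraries. With L-4F, Il12rb1 (1103 ± 14.6) and Il12rb2 (1054 ± 83.5) overlapped, as Jak2 (573 ± 33.5) and Tyk2 (563 ± 18.9) did. Stat4 stayed first at 1986 ± 29.4 and Il18rap last at 518 ± 10.2. With summed exon length in place of the longest transcript, Il12rb2 stood at 833 and Il12rb1 at 772 normalized reads per kb with L-4F, so the order of these 2 depends on the length used. By mean normalized reads per gene, which were not divided by length, all 8 genes lay between the percentiles 75.9 (Myd88) and 93.7 (Stat4) of the genes tested. This ranks them by reads collected and not by level.

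In GRCm38 coordinates of GENCODE M21 the 8 genes lie on 5 autosomes, with Il18r1 (chr1:40465552-40500854) and Il18rap (chr1:40515362-40551705) next to each other on chromosome 1. Il18r1 is preceded after 136 bases by Il1rl1, the interleukin-33 receptor, which had 204 ± 16.1 normalized reads in buffer and 166 ± 32.4 with L-4F (log2 fold change -0.31, limma adjusted p = 0.0724). Il12rb2 (chr6:67291318-67376188) has Il23r as its neighbour, which was near the low end of the tested range at 40.7 ± 7.77 and 43.2 ± 8.91 normalized reads (log2 fold change 0.085, limma adjusted p = 0.814). Stat4 (chr1:51987148-52107189), Tyk2 (chr9:21104068-21131243), Jak2 (chr19:29251828-29313080), Myd88 (chr9:119335934-119341411) and Il12rb1 (chr8:70808449-70821424) have no other gene of the axis beside them.

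Some of these genes overlap others, and no source used here says whether the authors counted by strand, although the libraries were strand-specific. Of the 3794 exonic bases of Il12rb2, 1519 are shared with Serbp1 on the opposite strand, a gene with a mean of 26604 normalized reads that rose (0.16, limma adjusted p = 6.58e-06), against the direction of Il12rb2. Stat4 shares 1033 of 3872 exonic bases with Gm28177 on the same strand (930 normalized reads), so reads may be split between them. Myd88 shares 290 of 2576 with Acaa1a on the opposite strand (1616 normalized reads, log2 fold change 0.20, limma adjusted p = 0.00322). Tyk2 shares 554 of 6865 with an antisense gene at 3.03 normalized reads. The values of Il12rb2, Stat4 and Myd88 are uncertain to that extent.

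The ligands were scarce in these cells. Il18 had 4.13 ± 3.03 normalized reads in buffer and 3.09 ± 3.76 with L-4F, and Il12b, the subunit that interleukin-12 shares with interleukin-23, 1.47 ± 2.54 and 1.44 ± 1.24, both below the filter. Il12a had 20.9 ± 1.92 and 18.8 ± 9.08 (limma adjusted p = 0.640). Il18bp, the soluble decoy of interleukin-18, was better measured, at 353 ± 25.4 in buffer and 404 ± 32.0 with L-4F (log2 fold change 0.19, adjusted p = 0.0992). Of 6 tested ligand and decoy genes 1 was called, Il1b, which encodes interleukin-1 beta, at 17.1 ± 7.63 and 32.7 ± 1.83 normalized reads (0.99, adjusted p = 0.0241; 0.82 and adjusted p = 0.0781 once the length trend was removed).

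Of 15 related receptor chains 5 were called higher and 4 lower, beside 18.4% and 19.7% of all genes, and the median of the list was 0.072 on the log2 scale. With the length trend removed 5 were higher and 2 lower, beside 13.5% and 12.9%. Il6st, the gp130 chain of the interleukin-6 family, fell from 3709 ± 72.9 to 2791 ± 58.1 normalized reads (-0.41, SE 0.033, limma adjusted p = 2.21e-09), and was at -0.13 without the length trend. Ifngr1, the ligand-binding chain for interferon-gamma, rose from 13525 ± 317 to 15867 ± 115 normalized reads (0.23, limma adjusted p = 3.58e-08). Il10rb (0.21) and Il10ra (0.18), the chains of the interleukin-10 receptor, rose as well, and all 3 remained higher without the length trend (0.13, 0.18 and 0.19).

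Of 11 JAK and STAT genes, 3 of which belong to the axis, 9 fell, beside 19.7% of all genes, with a median of -0.22 on the log2 scale and transcripts of 4828 nt in the median. Stat5b, activated by interleukin-2, fell from 3924 ± 56.8 to 3281 ± 46.8 normalized reads (-0.26, limma adjusted p = 8.69e-07), and Jak3, the kinase of the common gamma chain, from 3938 ± 158 to 3282 ± 22.3 (-0.26, adjusted p = 2.09e-06). Stat3 (-0.22) and Jak1 (-0.11) fell by less. With the length trend removed 6 fell, beside 12.9% of all genes, among them Jak2, Tyk2, Jak3 (-0.21) and Stat5b (-0.13), whereas Stat3 (-0.045, adjusted p = 0.229) and Jak1 (-0.0071, adjusted p = 0.833) did not pass. The values of Tyk2 and Jak2 lay between those of Jak3 and Jak1 in the deposited scale.

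Of 19 genes that restrain JAK and STAT signalling 4 were called higher and 5 lower, with a median of -0.013. These counts are near the 18.4% and 19.7% of all genes and do not set the list apart. Socs3, a feedback inhibitor that binds gp130 and JAK proteins, rose from 1700 ± 25.2 to 1948 ± 64.4 normalized reads (0.20, limma adjusted p = 0.000695), and Usp18, an inhibitor of interferon receptor signalling, rose as well (0.42, adjusted p = 3.95e-06). Ptpn11 (-0.27), which encodes the phosphatase SHP2, Socs7 (-0.30) and Socs4 (-0.22) fell, but not with the length trend removed (-0.030, -0.086 and -0.0084), where 6 genes of the list were higher and 2 lower, beside 13.5% and 12.9% of all genes. Socs1 (0.11, adjusted p = 0.0682) and Cish (-0.013, adjusted p = 0.729) did not pass, Socs1 at 1362 ± 47.8 and 1474 ± 52.9 normalized reads.

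Of 31 genes of the MyD88 pathway, with Myd88 itself, 12 fell and 0 rose, beside 19.7% and 18.4% of all genes, with a median of -0.057. Irak1, a kinase recruited by MyD88, fell from 3367 ± 157 to 2957 ± 156 normalized reads (-0.19, SE 0.041, limma adjusted p = 0.000952), while Irak4, the kinase that activates it, was at 801 ± 19.1 and 783 ± 34.8 (-0.033, adjusted p = 0.705). Traf6, the ubiquitin ligase that follows them, fell from 3552 ± 173 to 3145 ± 140 normalized reads (limma adjusted p = 0.00118). Ikbkb (-0.18), which encodes a kinase that phosphorylates the inhibitor of NF-kB, and Traf3 (-0.23) fell, as did Nfkb1 (-0.23) and Tnfaip3 (-0.30). Without the length trend 10 genes of the list were lower and 2 higher, beside 12.9% and 13.5% of all genes. Irak1 (-0.15), Ikbkb (-0.081), Nfkb1 (-0.18) and Tnfaip3 (-0.12) were among those lower, and Traf6 (0.0018, adjusted p = 0.978) and Traf3 (-0.0079, adjusted p = 0.904) were not.

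Of 32 genes known to respond to interleukin-12 or interleukin-18, 7 were called higher and 8 lower, with a median of -0.034. These counts are near the 18.4% and 19.7% of all genes and do not set the list apart. Interferon-gamma itself was not called, with Ifng at 3832 ± 71.0 and 3670 ± 70.2 normalized reads (-0.062, limma adjusted p = 0.130), and neither was Tbx21, which encodes T-bet (-0.084, adjusted p = 0.120). The 2 Gadd45 genes, which link these cytokines to p38, went apart. Gadd45b fell from 680 ± 19.0 to 551 ± 71.2 normalized reads (-0.31, SE 0.079, limma adjusted p = 0.00337), and Gadd45g rose from 700 ± 64.6 to 866 ± 31.4 (0.31, SE 0.068, adjusted p = 0.000941). Furin, a protease gene induced by STAT4, fell from 4486 ± 56.9 to 3740 ± 121 normalized reads (-0.26, limma adjusted p = 8.38e-07). Irf1, an interferon response factor, rose from 12544 ± 215 to 13829 ± 145 (0.14, adjusted p = 2.85e-05). Il2ra, Zeb2 and Gzma were the other genes with the smallest adjusted p, the first 2 lower (-0.29 and -0.69) and Gzma higher (0.52). Without the length trend Il2ra was at -0.22, Zeb2 at -0.39 and Gzma at 0.31. Transcripts of the list were short, at 2051 nt in the median beside 2964 nt for all genes tested, and Ifng had 1208 nt. With the length trend removed the list had 4 genes higher and 14 lower, beside 13.5% and 12.9% of all genes, and a median of -0.11. Ifng (-0.25, adjusted p = 2.89e-06), Tbx21 (-0.15), Gadd45b (-0.49) and Furin (-0.11) were then lower, and Gadd45g (0.11, adjusted p = 0.264) and Irf1 (0.045, adjusted p = 0.137) did not pass.

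**Figure D5:**
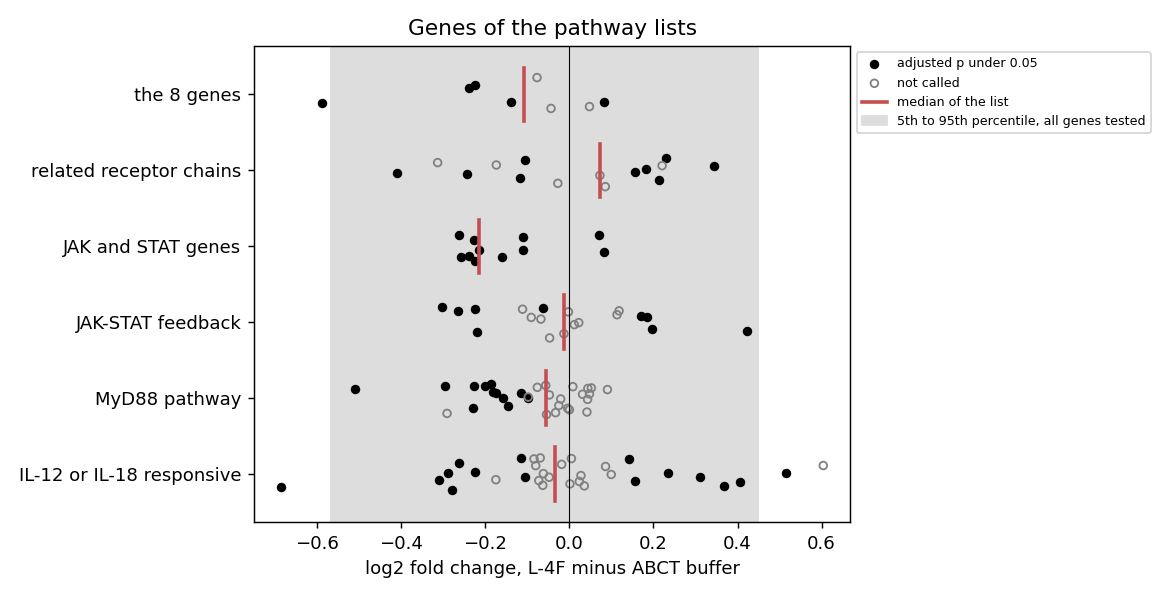
Log2 fold change, L-4F minus ABCT buffer (horizontal axis), of the genes of each pathway list. Filled points are called genes, open points are not, red lines are list medians and the grey band spans the 5th to 95th percentile of all genes tested, -0.57 to 0.45. Il12rb2 lies beyond the lower edge of the band, and the JAK and STAT genes have the lowest median of these pathway lists, -0.22.

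The 3 genes outside the axis whose profile over the 6 libraries lay nearest to that of Il12rb2, by root mean square distance of log2 values centred on each gene's mean, were Plxna1 (0.0497), Ankrd11 (0.0514) and Srrm2 (0.0589). The search covered genes with a minimum group difference set from that of Il12rb2, and left out predicted genes, Riken clones and pseudogenes. The log2 fold changes of the 3 genes were -0.59, -0.61 and -0.57, a closeness that follows from the small distance. Their longest transcripts had 9034, 8481 and 8864 nt, and without the length trend they were at -0.30, -0.34 and -0.28, whereas Il12rb2 was at -0.61.

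The markers of the cells were as labelled, with Cd8a at 31369 ± 198 and 34094 ± 813 normalized reads. Of 8 CD8 T cell markers 6 rose and 1 fell (5 and 1 with the length trend removed). Their summed level was 112720 to 114080 normalized reads in buffer and 127560 to 130830 with L-4F. The marker counts stand beside 18.4% of all genes called higher and 19.7% lower (13.5% and 12.9% with the length trend removed). Natural killer cells also carry Il12rb2 and Il18r1. Of 11 natural killer cell markers 5 rose and 0 fell (3 and 0 with the length trend removed), with sums of 3195 to 3495 and 3992 to 4094 normalized reads, and the defining marker Ncr1 was at 54.3 ± 7.57 and 70.4 ± 18.9. The largest part of these sums came from Klrk1, which CD8+ T cells can also express, at 1655 and 1999 normalized reads. Of 5 CD4 T cell markers 1 fell, with sums of 2684 to 2792 and 2732 to 2812. The marker that fell was Cd4 itself, at 46.6 ± 2.53 and 29.0 ± 4.45 normalized reads. Most of the CD4 marker sums came from Ctla4, at 2022 and 2098 normalized reads. Among 4 tested B cell markers 1 rose (Cd79b), with sums over 6 genes of 221 to 262 and 309 to 338. Among 9 tested macrophage and dendritic cell markers 1 rose (Fcer1g), with sums over 10 genes of 2112 to 2369 and 2346 to 2479. Lyz2, at 1043 and 1101 normalized reads, was the largest part of the latter sums. Counts of 1 in lists this short do not set them apart from all genes. No marker was at 0 in all 6 libraries. These sums were higher with L-4F for natural killer and B cells while Il12rb2 and Il18r1 were lower, and their part in the results was not tested.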

How the data were processed

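RNA sequencing libraries were strand-specific TruSeq libraries from 1 μg of total RNA, per the labels' protocols. StringTie 1.3.1c and FastQC (0.11.2, 0.11.5) appear in the submitters' processing notes with no role. Not given in the sources used here are aligner, build and annotation. Values in the deposited table are log2 values, found from the values to be log2 of reads over a library factor, plus 1, since they returned whole reads for 100% of genes within 0.01 read. Reads summed to 25073292 to 31332003 per library, and factors were 0.899 to 1.13. The same table gives the authors' log2 fold changes, p-values and FDR, by a test not stated, whose direction was checked against the library columns. The 2 columns of group values, for which no group is named, were not used.

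Genes with at least 10 normalized reads in at least 3 libraries were fitted in limma 3.58.1 (R 4.3.3) with a trended robust spread, taking the deposited log2 values and no covariate besides treatment. Benjamini-Hochberg adjustment covered all 14922 genes. Fold changes are on the log2(normalized reads + 1) scale. Normalized reads are reads over the library factor. The procedure was tested on simulated data. Ratios of paired genes were compared over libraries with exact permutation tests. Lengths and coordinates come from GENCODE M21 on GRCm38, which may differ from the authors' annotation. Promoters come from a set of 32851 windows at RefSeq starts. In that set 7 of the 8 genes had an entry and Il12rb1 had none. A length or GC trend was removed per library by robust loess (span 0.3). The 8 genes, the lists and the alternatives were chosen with earlier results of these data known.

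Named genes were the 8 members, up to 4 called genes per pathway list with the smallest adjusted p, a set list of pathway genes whatever their result, the 3 genes nearest to Il12rb2 in profile, and, chosen after their values were seen, overlapping genes and single markers. Alternatives concerned the filter, pseudocount, scaling, spread model, length and GC trends, replicate block and left-out libraries. Pairs of libraries within a group differed by 2.19 to 2.72 times counting noise, so no library was a copy. At this depth a count of 0 allows up to 0.0957 to 0.120 CPM (3 reads), counting error only.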

Additional observations from a re-analysis of the deposited data

How the results depend on the processing

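Each gene was refitted under 19 other settings, and the ratios with another pseudocount, quantile normalization, the length and GC trends removed and each library left out; the summed exon length trend for the ratios was added after seeing the data. Il12rb2 (-0.65 to -0.54), Jak2 (-0.28 to -0.13), Tyk2 (-0.26 to -0.12) and Il18r1 (-0.18 to -0.085) were called lower in all 19. Stat4 was not called without the low-value filter (0.081), with median centring (0.041), total-read scaling (0.064), limma without the trended robust spread (0.081), or the transcript (0.056) or summed exon length trend removed (0.058); the count of genes of the axis called higher was then 0. Il12rb1 was called with a filter at 10 CPM (-0.077), median centring (-0.12), total-read scaling (-0.095), and the transcript length (-0.11), summed exon length (-0.089) or GC trend (-0.091) removed. Il18rap (0.060 and 0.050) and Myd88 (-0.018 and -0.051) turned sign with the transcript and summed exon length trends removed, and the Tyk2 to Jak2 difference did with the GC trend removed (-0.017). Genes called lower numbered 1921 with the transcript length trend removed, against 2947. Calls split into 2161 higher and 3630 lower with median centring, against 2747 and 2947, and that step shifted the median of all genes by -0.04. The cause of these changes was not tested.

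With each library left out in turn, Stat4 ranged from 0.056 to 0.12, genes of the axis called higher from 0 to 1, and the Tyk2 to Jak2 difference from -0.0053 to 0.034, turning sign without buffer library 2 (-0.0037) or L-4F library 3 (-0.0053). With the replicate number as a block, Il12rb2 was at -0.59 (adjusted p = 5.1e-08), 4 genes of the axis were lower and 1 higher, and no call of the 8 genes changed. Same-numbered libraries had correlations of deviations of 0.0511, 0.0111 and 0.109, and other pairs across the groups had -0.0812 to 0.0305. The same-numbered values were small but all positive, so they do not settle whether the numbers stand for pairs. The main fit did not take them as pairs. Il12b and Il18 lie near the depth limit and were not tested.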
